A study of Glycine max with 30 samples.

Results

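The regions described here were accessible chromatin regions of soybean leaf that appeared on the peak lists of 5 of the 6 sampled time points and were missing from the list of the remaining one. The study deposited 1 merged peak list for each time point, and pooling the 6 lists and joining regions that overlapped or touched gave 35922 union regions. Of these, 3599 overlapped a region of exactly 5 lists (10.02%, 95% Wilson interval 9.71 to 10.3), and they were grouped by the time point whose list lacked them. Membership was therefore chosen from measured peak calls, and everything the merged lists state about these regions is given as a description with no test.

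The plants were wild-type Williams 82 (Ws82) soybean, raised in short days until the first trifoliate leaf opened and then moved to constant light, so that all groups were free-running and differed only in the time of sampling. Leaves were collected at 6 time points 4 h apart, labelled ZT0, ZT4, ZT8, ZT12, ZT16 and ZT20, which the paper counts 1 circadian cycle later. Each time point had 3 biological replicates, labelled L, M and R, each profiled by ATAC-seq, in which the transposase Tn5 cuts and tags open DNA in isolated nuclei. The other 12 of the series' 30 samples, which include clock mutants, were not analysed here.

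Open stretches of chromatin in plants are mostly short segments near genes where nucleosomes are displaced and transcription factors can bind. The circadian clock is a set of interlocking transcriptional feedback loops in which morning-expressed MYB factors of the LHY/CCA1 type, PRR repressors and the evening complex of ELF3, ELF4 and LUX take turns through the day. A site whose accessibility dips once per cycle would be one form of rhythmic chromatin. A peak list records only whether a stretch of reads passed a caller's threshold, so a region missing from a list can also be one that fell just short of it.

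The number of regions missing from each list varied widely. The ZT0 list lacked 1214 of the 3599 regions (33.7%) and the ZT20 list lacked 810 (22.5%). Together these time points, the first and last sampled and adjoining only on the circadian cycle, held 2024 (56.2%). The ZT8 list lacked 475 (13.2%), the ZT4 list 443 (12.3%), the ZT12 list 336 (9.34%) and the ZT16 list 321 (8.92%). The ZT0 and ZT20 lists were also the shortest, with 13675 and 15405 regions, followed by ZT8 with 18559, ZT4 with 18794, ZT16 with 19647 and ZT12 with 21022. The order of the 6 groups thus followed the shortness of the lists except that ZT12 and ZT16 changed places. Whether fewer accessible sites or a lower yield of peaks at a time point set these numbers cannot be told apart from peak lists.

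In width, library support and peak rank these regions lay between the classes on 4 and on 6 lists. Their median width was 537 bp, against 492 bp for the 3412 regions on 4 lists and 563 bp for the 6538 regions on all 6. On average 10.5 of the 18 libraries had a peak in them, against 7.50 and 15.2. When the peaks of a library were ranked from 0 to 100 by their −log10 q, the caller's measure of confidence, the median rank was 52.1, against 42.1 on 4 lists and 74.3 on 6 lists. The step in rank to the regions on 6 lists was larger than the step from those on 4. Width, library support and rank rose with every further list, from 261 bp, 1.49 libraries and 22.4 for the regions on 1 list. Part of this order is set by the grouping: each listing came with at least 1 library peak, and joining more lists can only widen a region.

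Each library also had a peak list of its own, and these lists show how many replicates had a peak at the time point that was missing. The paper states that replicates were downsampled to standardize depth before this calling. The 18 lists held 7668 to 21804 peaks. A peak's enrichment and its −log10 p together fix how many whole fragments are stacked at the summit, and this number could be recovered for at least 99.96% of the peaks with −log10 p under 50. The most common background recovered with it differed between libraries, from 0.390 to 0.784 fragments per base. The part of depth in the number of peaks was not tested. The weakest peaks had 4 or 5 fragments at the summit and the median was 7 to 11 by library, so a peak and its absence could be separated by only a few fragments.

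In 2134 of the 3599 regions (59.3%, with a Wilson interval of 57.7 to 60.9) none of the 3 libraries of the lacking time point showed a peak. A peak was present there in 1 library for 597 regions (16.6%), in 2 libraries for 425 (11.8%) and in all 3 for 443 (12.3%, 11.3 to 13.4). Thus 1465 regions (40.7%) were missing from the merged list of a time point at which at least 1 replicate had a peak. These intervals cover counting error only. When a peak had to cover at least 50% of the region, 89.0% had none at the lacking time point and 43 of the 443 still had a peak in all 3 libraries, so most of these peaks spanned a smaller part of the region. The same share at the listed time points is not given here. In the regions named below, a peak covered 50% in 1 to 15 of the 15 libraries of the listed time points.

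**Figure D1:**
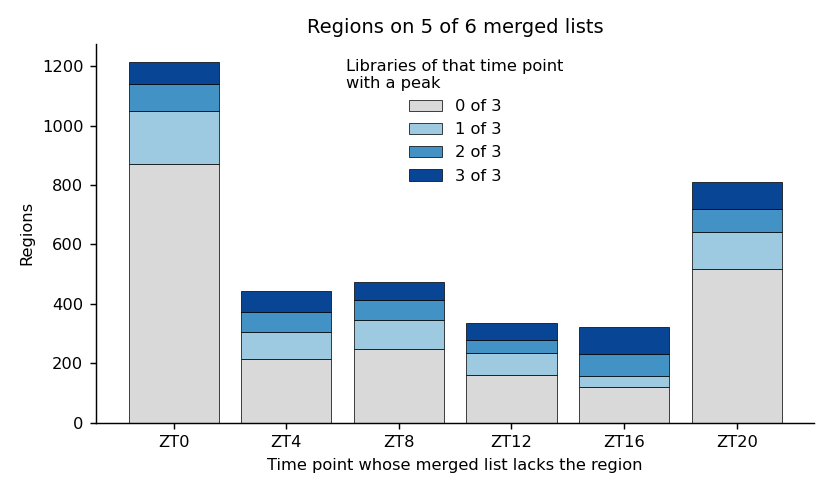
Number of regions (y axis) missing from the merged list of each time point (x axis), with each bar divided by how many of the 3 libraries of that time point had a peak in the region. The bars at ZT0 and ZT20 are the tallest, at 1214 and 810 regions, and the share with no library peak runs from 37.7% at ZT16 to 71.7% at ZT0.

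The groups differed in how complete the gap was. No library of the lacking time point had a peak in 71.7% of the regions missing at ZT0 (871 regions), 63.8% at ZT20 (517), 52.4% at ZT8 (249), 48.3% at ZT4 (214), 48.2% at ZT12 (162) and 37.7% at ZT16 (121). Over all union regions the same call, no peak in 3 libraries, was made for 57.2% at ZT0, 51.5% at ZT20, 42.4% at ZT8, 42.3% at ZT4, 35.1% at ZT12 and 39.6% at ZT16. The regions missing at ZT16 were thus slightly below this background and the other 5 groups above it. Since the merged lists were made from the same libraries, nothing is read from that difference. A closer match is the regions of 1 to 4 lists that also lacked the time point, of which 84.6% (ZT12) to 93.1% (ZT0) had no library peak there. No region without a library peak at a time point was on that time point's merged list. The paper states that only peaks consistent between replicates and merged reads were kept, so this follows from how the lists were made.

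At the opposite end, all 3 libraries of the lacking time point had a peak in 89 of the 321 regions missing at ZT16 (27.7%), 57 at ZT12 (17.0%), 69 at ZT4 (15.6%), 62 at ZT8 (13.1%), 91 at ZT20 (11.2%) and 75 at ZT0 (6.18%). The same call was made in 19.8%, 18.3%, 17.7%, 14.2%, 14.3% and 13.2% of all union regions at those time points. ZT16 was the one time point at which the share was above this background. Of all union regions with a peak in 3 of 3 libraries, 4.41% were off the merged list at ZT16, against 2.99% to 3.59% at the other 5 time points. A peak in every one of the 18 libraries was found in 138 of the 3599 regions (3.83%), against 6.33% of all union regions.

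**Figure D2:**
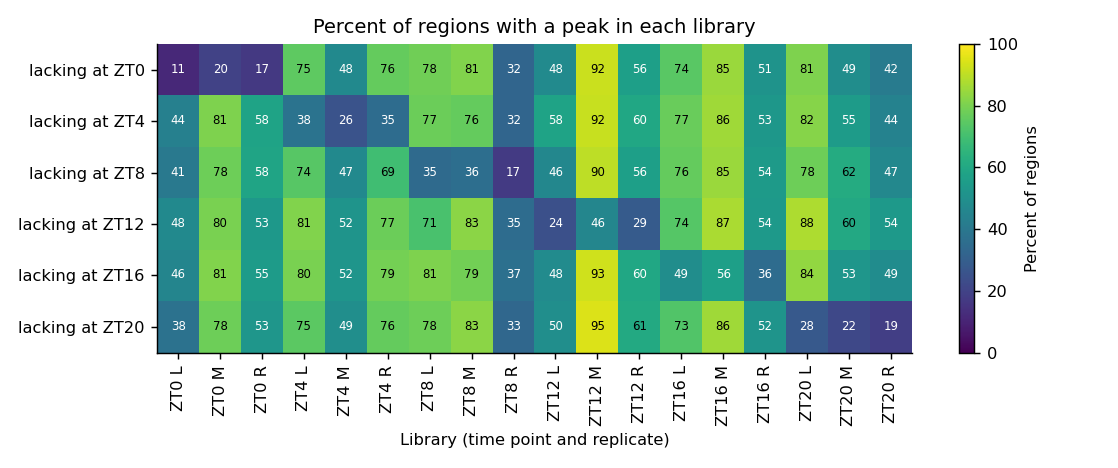
Percent of the regions of each group (rows, by lacking time point) with a peak in each of the 18 libraries (columns, by time point and replicate), as colour and as rounded numbers. The dark blocks on the diagonal are the libraries of the lacking time point, which the grouping used, and the columns show that libraries of the same time point differed, for example at ZT8, where replicate R is low in every group.

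Replicates of a time point differed more than groups of regions did. Over all 3599 regions the share with a peak ran from 31.3% in ZT8 replicate R and 31.6% in ZT0 replicate L to 88.1% in ZT12 replicate M. In ZT8 replicate R, the 5 groups listed at ZT8 had a peak in 32.5% to 36.8% of their regions, and in ZT12 replicate M the 5 groups listed there had one in 89.9% to 94.8%. The number of peaks in those libraries was 8143 and 21804. Among all pairs of a region and a time point that listed it, the support was 1 library in 32.5% to 36.6%, 2 libraries in 34.4% to 39.7% and 3 libraries in 27.0% to 31.8%, depending on the group.

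Regions with more library peaks at the time point that lacked them were wider, and those with a peak in all 3 libraries ranked higher elsewhere. The median width was larger with each further library having a peak there, from 445 to 480 bp with none to 718 to 874 bp with all 3, in each of the 6 groups. The median rank of the peaks at the 5 listed time points was 44.1 to 49.8 with none and 65.3 to 75.3 with all 3. With 1 library it was 44.1 to 54.7, and no higher than with none at ZT16 (44.1 in both) and ZT20 (49.3 against 49.8). Regions with a peak in all 3 also had one in more libraries of the listed time points, with medians of 13 or 14 of 15 against 8 or 9 of 15 with none. A wider region offers more bases for a peak to overlap, and the part of width in these values was not tested.

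**Figure D3:**
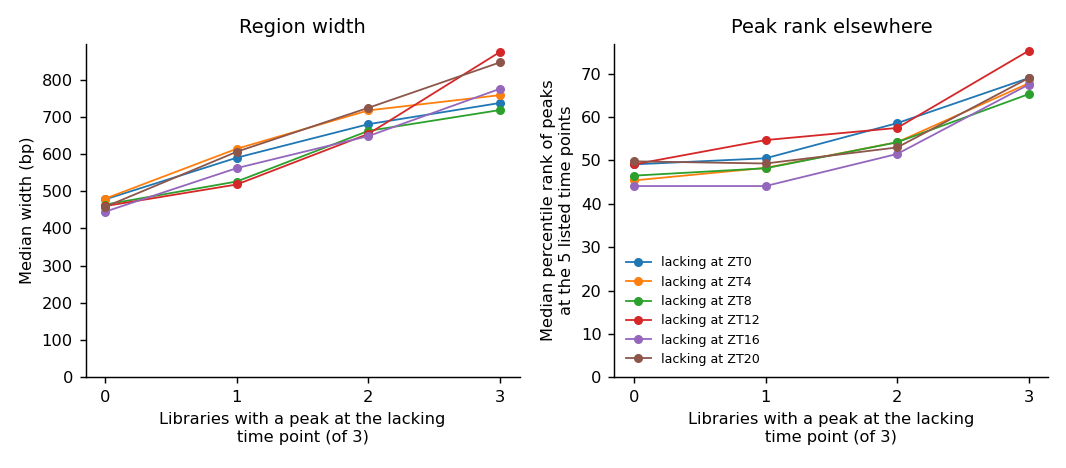
Median width in bp (left) and median percentile rank of the peaks at the 5 listed time points (right) against the number of libraries of the lacking time point with a peak, 1 line for each of the 6 groups. Both are higher with 3 libraries than with none in all groups, at least 718 bp against at most 480 bp and at least 65.3 against at most 49.8.

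The peaks found at the lacking time points lay close to where the other time points had theirs. Of 2776 such peaks, 2098 (75.6%) had their summit within 100 bp of the median summit of the listed libraries, with a median distance of 39.5 bp. For the 35045 peaks of the listed time points, set against the other listed libraries, 80.6% lay within 100 bp and the median was 36 bp. The share at the lacking time point ran from 71.2% (ZT20) to 81.1% (ZT12). At the summit these peaks had a median of 9 fragments for the regions missing at ZT0, ZT4, ZT8 and ZT20 and 11 for those missing at ZT12 and ZT16. The listed time points had 9 or 10, but over all regions of a group, also those with no peak at the lacking time point. In regions with a peak in all 3 libraries there, the median was 11 against 13 at the listed time points for ZT0, ZT4 and ZT20. For ZT8 it was 10 against 12, for ZT12 it was 13 against 12 and for ZT16 it was 12 in both.

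A complete contrast was rare. Just 21 of the 3599 (0.583%, Wilson interval 0.382 to 0.890) showed peaks in 15 of 15 libraries of the listed time points and in 0 of 3 libraries of the lacking one, and 13 of them were missing at ZT0. The regions missing at ZT12 held 3 of them, those missing at ZT4 and ZT20 held 2 each, those missing at ZT8 held 1 and those missing at ZT16 none. Over all union regions 22 had this pattern (0.0612%), so 1 such region was not among those on exactly 5 lists. The regions shown next were picked for this pattern, so their values are descriptions. Positions are in the Wm82.a2.v1 assembly, counted from 1, and neighbouring genes were not assigned because no annotation of that assembly was used here.

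Among the regions missing at ZT0 with the complete contrast, the one that ranked highest elsewhere lay at chr6:48460117-48460788. Its peaks had 33, 18 and 32 fragments at the summit at ZT4 in replicates L, M and R, 30, 29 and 20 at ZT8, 19, 39 and 27 at ZT12, 25, 25 and 19 at ZT16 and 28, 12 and 24 at ZT20. No ZT0 library had a peak. The lowest of these counts, 12 in ZT20 replicate M, belonged to a peak with a −log10 q of only 3.11, and 14 of the 15 peaks remained when each library was cut to an equal number of peaks. The next region, chr5:9717517-9718037, had a lowest count of 9, a median of 19 and a highest count of 39 over the 15 libraries. It had 27, 14 and 29 at ZT4, the sampling after ZT0, and 9, 11 and 11 at ZT20, the last sampling of the series. The third, chr9:488085-488797, had a lowest count of 7, a median of 14 and a highest of 20. At ZT20 its libraries had 8, 10 and 12 fragments, against 11, 11 and 14 at ZT4 and 14, 17 and 7 at ZT8.

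**Figure D4:**
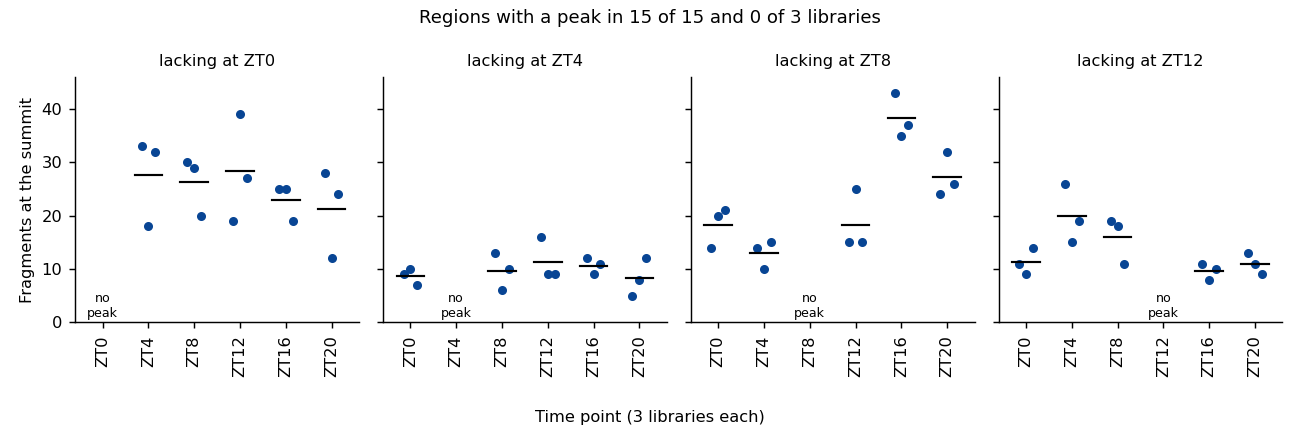
Fragments at the peak summit (y axis) in each of 3 libraries per time point (x axis) for the first region of the groups missing at ZT0, ZT4, ZT8 and ZT12, points for libraries and lines for the means. No library of the lacking time point had a peak, and the ZT8 region reaches 35 to 43 fragments at ZT16 while the ZT4 region stays between 5 and 16 throughout.

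The region missing at ZT8, chr18:14365287-14366917, was wide (1631 bp) and uneven over the day. It had 14, 10 and 15 fragments at ZT4, none called at ZT8, 15, 25 and 15 at ZT12, 43, 35 and 37 at ZT16, 24, 32 and 26 at ZT20 and 14, 20 and 21 at ZT0. The values at ZT4 and ZT12, on either side of the gap, were below those of ZT16 in every library. Its peaks did not share 1 start position. The starts spread over 979 bp, and the spread of the summits is not given here.

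For ZT12 the first region, chr11:9655934-9656509, had 26, 15 and 19 fragments at ZT4, 19, 18 and 11 at ZT8, 11, 8 and 10 at ZT16, 13, 11 and 9 at ZT20 and 11, 9 and 14 at ZT0. The samplings at ZT4 and ZT8 had 11 to 26 fragments and the other 3 had 8 to 14, so the ranges overlapped. The second, chr15:21579681-21580827, had 8 to 25 fragments, with its highest values in ZT20 replicates L and M (23 and 25). ZT20 replicate R had 18, below ZT4 replicate R with 20 and ZT0 replicate R with 19. The third, chr2:42310231-42311031, had 6 to 19, again with its highest value at ZT20. Of the regions missing at ZT4, chr17:10900442-10901165 had 5 to 16 fragments with a median of 9, and chr11:9390111-9390845 had 6 to 19 with a median of 11.

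No region missing at ZT16 had the complete contrast. The nearest was chr8:5605254-5605502, with a peak in 14 of 15 libraries, 7 to 16 fragments and a median of 10, and no peak in ZT20 replicate M besides the 3 ZT16 libraries. The second, chr15:13592804-13593352, had peaks in 12 of 15 libraries at a median rank of 22.0, and the third, chr13:43017460-43017731, in 11 of 15 at a median rank of 87.3. In the last, 1 of the 3 ZT20 libraries had a peak. A further group of near-complete regions had 14 of 15: chr4:3283107-3283477 missing at ZT4, chr5:38904260-38904639 and chr14:3888590-3889184 missing at ZT8 and chr20:38334562-38334959 missing at ZT20. In the regions missing at ZT8 the median was 14 and 13.5 fragments.

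One region missing at ZT20 stood apart from the rest in strength. At chr1:24358351-24358644, the peaks of all 15 libraries from ZT0 to ZT16 had a −log10 q of 218 to 333 and a fold of 36.7 to 44.4 over the local background. Their starts agreed to within 2 bp, and the median rank was 97.9. No ZT20 library had a peak there. The other named regions with the complete contrast had a −log10 q of at most 35.4. The second region missing at ZT20, chr19:38661520-38662000, had a −log10 q of 7.35 to 27.1 and 9 to 25 fragments. The study removed the regions of highest signal from its final set, and the part of that filter in the chromosome 1 region was not tested.

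Some regions with strong peaks in all 18 libraries were nonetheless missing from a merged list. Those shown here were picked as the highest ranked of their groups. Of the 443 regions with a peak in all 3 libraries of the lacking time point, 203 had a −log10 q of at least 5 in all 3. The lowest of the 3 values had a median of 3.58 (ZT4) to 6.46 (ZT12) by group. At chr5:24014049-24014403, missing at ZT12, the −log10 q was 1690 to 1870 in the ZT12 libraries and 1370 to 1860 in the others, at 39.7- to 44.7-fold over background. At chr17:23590481-23590845, missing at ZT4, it was 168 to 190 in the ZT4 libraries and 104 to 219 elsewhere. The strongest such regions missing at ZT8 (chr9:33306884-33307652), ZT16 (chr13:8440045-8440292) and ZT20 (chr12:33276241-33277588) had 65.6 to 198, 63.1 to 76.6 and 78.6 to 141 in the libraries of the lacking time point. At ZT0 the one was chr16:35820386-35821104, with 24, 31 and 33 fragments at ZT0 and 17 to 40 in the 12 listed libraries for which a count could be recovered. In each of these 6 regions the values of the lacking time point overlapped those of the others.

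The question the time course allows is whether the regions were also weaker next to the gap than far from it. For each group the share of regions with a peak was taken in each of the 15 libraries of the listed time points, and the share among the other regions on 5 lists that were listed at that time was subtracted to remove the level of the library. The 6 libraries 4 h from the gap were compared with the 9 libraries 8 or 12 h away by a two-sided exact permutation test, with Benjamini-Hochberg adjustment over the 6 groups. Hours were counted around the circadian cycle, so ZT0 and ZT20, the first and last samplings of the series, counted as 4 h apart. The rule asked only that all 5 time points be listed and treated them alike, although the same reads went into both kinds of list.

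The difference was negative, that is with fewer peaks next to the gap, in all 6 groups (−1.46 to −4.76 percentage points), and it passed the test of libraries in 2 of them. The groups served as each other's reference, so their differences were not independent. The test took libraries as separate units, although distance from the gap is set by the time point. No group passed when the libraries of a time point were averaged, an exact permutation test that cannot go below p = 0.1. For the regions missing at ZT20, the relative share was −2.43 ± 2.41 points (SD, n = 6 libraries) next to the gap and 1.04 ± 1.64 (n = 9) farther away, a difference of −3.47 (exact permutation p = 0.00360, adjusted p = 0.0216). For those missing at ZT8 it was −3.43 ± 2.09 against 1.32 ± 3.82, a difference of −4.76 (exact permutation p = 0.0122, adjusted p = 0.0366). In both groups all 6 libraries next to the gap were below the median of the 9 others, although the ranges overlapped. For the regions missing at ZT20, the ZT0 libraries had −6.28, −1.97 and −3.85 points. The ZT16 libraries, sampled just before ZT20, had −2.41, 0.511 and −0.579 points. The groups missing at ZT12 (−4.60, adjusted p = 0.0747), ZT0 (−2.20, 0.159), ZT16 (−1.69, 0.206) and ZT4 (−1.46, 0.452) did not pass in the same exact permutation test. The smallest p the test allows is 0.000200.

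These calls depended on settings. Both were lost when each library was cut to its 7668 strongest peaks (adjusted p = 0.0959 at ZT8 and 0.113 at ZT20) and when the libraries of a time point were averaged, a test of 2 time points against 3 that cannot go below p = 0.1 (exact permutation p = 0.1 in both, adjusted p = 0.3). Over all settings other than left-out libraries the adjusted exact permutation p ran from 0.0132 to 0.776 at ZT8 and from 0.0120 to 0.776 at ZT20, the highest with the regions on all 6 lists as reference. The ZT20 call was lost without ZT16 replicate L (adjusted exact permutation p = 0.0539). The ZT8 call was lost without any 1 of ZT4 replicates L or R, ZT12 replicates L, M or R, ZT16 replicates L or R or ZT20 replicate R (adjusted exact permutation p = 0.0509 to 0.0747). A call was gained for ZT12 without ZT0 replicate R (adjusted exact permutation p = 0.0300) and when only regions with no library peak at the lacking time point were kept (−8.62, adjusted p = 0.0162).

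**Figure D5:**
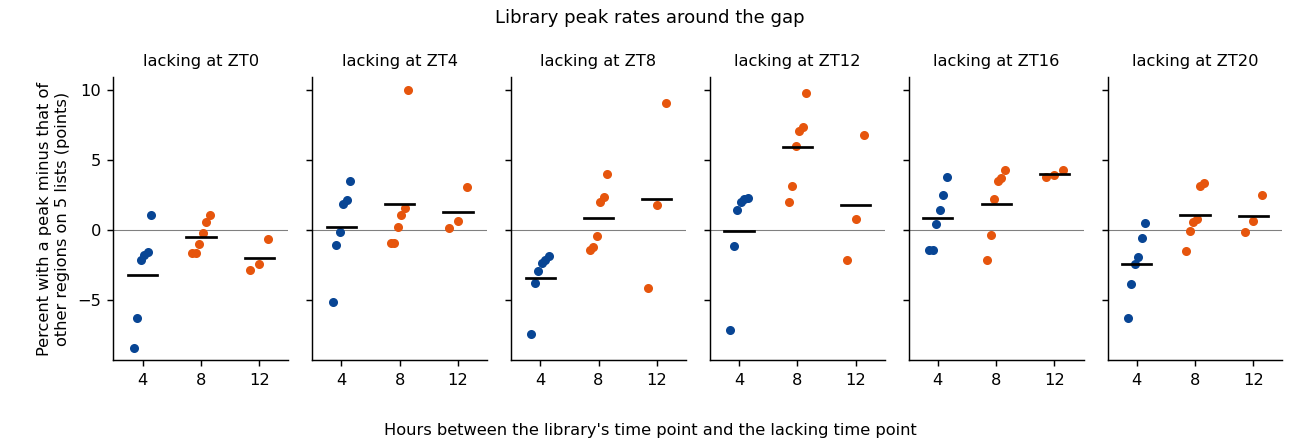
Share of regions with a peak minus that of the other regions on 5 lists, in percentage points (y axis), for each library of the listed time points, by hours from the lacking time point, counted around the circadian cycle (x axis), with blue points at 4 h, orange points at 8 and 12 h and lines for the means. The mean at 4 h is below that of the libraries at 8 and 12 h combined in all 6 groups, with the points overlapping in each.

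Where a region was listed, the length it covered on the merged list was also short near the gap in some groups. For the regions missing at ZT0 the median length was 349 bp on the lists 4 h away, 376 bp at 8 h and 375 bp at 12 h, and for those missing at ZT20 it was 348, 369 and 372 bp. Regions on all 6 lists had 412, 427 and 432 bp and 415, 421 and 419 bp on the same lists. The regions missing at ZT4 had 386, 412 and 420 bp and those missing at ZT8 had 354, 362 and 363 bp. Regions on all 6 lists also rose on the first of these sets of lists, with 407, 423 and 435 bp, and had 421, 415 and 414 bp on the second. The order differed for the regions missing at ZT12, with 361, 374 and 330 bp, the last on the short ZT0 list, and for those missing at ZT16, with 393, 384 and 386 bp. There the regions on all 6 lists had 427, 412 and 395 bp and 423, 407 and 410 bp. Merged lists have no replicates, and these lengths were not tested.

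Along the chromosomes the regions were placed much as other accessible regions were. Of all 3599, 76.9% lay in the outer 25% at either end of a chromosome, against 75.1% of the regions on 4 lists and 74.4% of those on 6, and the groups ran from 74.5% (ZT4) to 79.4% (ZT20). They made up 8.72% of the union regions on chromosome 20, the lowest share, and 11.1% on chromosome 7, the highest. A region of the list that lacked them lay within 1 kb for 7.037% (ZT20) to 11.96% (ZT4), and within 5 kb for 24.0% (ZT0) to 37.3% (ZT8). The same shares for other regions off that list are not given here, and they can also depend on the length of the list. The next union region along the chromosome was missing at the same time point for 33 of the regions lacking at ZT0 (2.72%, where this group is 3.38% of all union regions). In the other 5 groups this share was above that of the group in the union: 2.18% against 0.894% at ZT16, 2.32% against 1.32% at ZT8, 2.96% against 2.25% at ZT20, 1.58% against 1.23% at ZT4 and 1.19% against 0.935% at ZT12. These shares rest on 4 to 24 regions and were not tested.

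The set depended on which list decided. When a time point was instead counted as listed if at least 2 of its 3 libraries had a peak, 1955 union regions were present at exactly 5 time points, of which 459 were also among the 3599 with the same lacking time point (12.8% of the regions on 5 merged lists and 23.5% of those by libraries). The overlap was largest at ZT0, with 225 regions (18.5% and 29.7%), and smallest at ZT16, with 7 (2.18% and 8.97%).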

How the data were processed

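The authors trimmed reads with Trimmomatic, aligned them with Bowtie2 to soybean assembly Gmax_Wm82_a2_v1, keeping several alignments per read, and called peaks with MACS2 in paired-end mode, in each replicate after downsampling and on merged reads. For each time point they kept the peaks consistent between the replicates and the merged reads. Merged lists hold positions only. In the deposited lists of single libraries, a peak has a fold enrichment and a p and q on the −log10 scale. The authors' exclusion of the strongest and of low-signal regions, and reads placed at several copies of a repeat, can remove or add peaks. Read totals were not used here.

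Merged lists were joined when overlapping or touching. A library had a peak in a region on an overlap of 1 bp. Summit fragments were recovered from fold and −log10 p for peaks with −log10 p under 50 and a misfit under 0.01. The regions, named regions and comparisons were chosen with earlier results of these data known. Named regions were, per lacking time point, the 3 with no library peak there and most of the 15 others (ties by median rank), and the 1 with most library peaks there. Replicates are biological per the labels. Tests were exact permutation tests (threshold 0.05) in Python 3.11.15 with numpy 2.4.6, pandas 2.3.3 and scipy 1.17.1, tested on simulated data. The simulated libraries were drawn independently, so effects shared by the libraries of a time point were not covered. Alternatives changed the joining distance (100 bp), list coverage (25%), peak coverage (50%), −log10 q (at least 5), number of peaks, reference regions, replicate block and left-out libraries. No columns of per-sample values were left unmapped. No sequence is shown, since no genome of this assembly was used here.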

Additional observations from a re-analysis of the deposited data

Results flagged for a closer look

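In the comparison of libraries near to and far from the gap, 3 libraries stood away from the others of their set, out of 12 sets examined. Chance flags about 1 in 20 such sets. For the regions missing at ZT4, ZT12 replicate L had a relative share of 10.05 percentage points, where the other 8 libraries 8 or 12 h away had −0.927 to 3.09. For the regions missing at ZT8, ZT4 replicate R had −7.46 points, where the other 5 libraries 4 h away had −3.79 to −1.87. For the regions missing at ZT12, ZT8 replicate L had −7.17 points, where the other 5 had −1.13 to 2.25.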

How the results depend on the processing

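The number of regions on 5 of 6 lists stayed within 1.5 times of 3599 when regions were joined only on overlap, when they were joined up to 100 bp apart and when a list had to cover 25% of a region, and was 1955 when 2 or more libraries decided. The share with no library peak at the lacking time point was 59.3%, and moved to 89.0% with peaks covering 50% of the region, 73.0% with equal numbers of peaks and 74.2% for peaks whose −log10 q reached 5.

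The difference between libraries near to and far from the gap was negative in all 6 groups under the 21 alternatives that could change it. In the other 3, the replicate block (alone and with equal numbers of peaks) and the time-point means, the design fixes the difference and only p can move. At ZT8 it no longer passed with regions on all 6 lists as reference (−3.35), with the far libraries at 12 h only (−5.67), with median rank in place of the share (−1.44), with equal numbers of peaks (−3.42), with 50% coverage (−3.29) or with time-point means (−4.76). At ZT20 the same settings gave −2.94, −3.44, −1.64, −3.24, −2.49 and −3.47, again without passing. At ZT12 it passed with 50% coverage (−7.05) and with regions that had no library peak at the lacking time point (−8.62). The last setting and the time-point means were chosen after seeing the data. Without 1 library each, the difference ran from −5.44 to −3.78 at ZT8, from −4.05 to −2.70 at ZT20, from −5.44 to −3.18 at ZT12, from −3.06 to −1.15 at ZT0, from −2.27 to −1.22 at ZT16 and from −2.13 to −0.393 at ZT4.

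Replicates share only a letter: deviations from time-point means had correlations of −0.0559 to 0.0583 over 45 same-letter pairs. The replicate block, under which the differences are the same by design (−3.47 at ZT20, −4.76 at ZT8), changed no call, and with equal numbers of peaks (−3.24 and −3.42) neither passed the threshold. Low summit counts limit what a missing peak shows.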
